A study of Mus musculus with 39 samples.

Results

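The account concerns 7 genes tied to the resting state of T cells and to their exit from lymph nodes, namely Foxo1, Klf2, S1pr1, Il7r, Tcf7, Lef1 and Txnip. They were taken by gene symbol from a table of OT-II T cells, where all 7 had a row among 7830 genes, and for context from 3 tables of dendritic cells (DC), where all 7 had a row among 24421, 24421 and 24411 genes. C57BL/6 mice aged 8 to 12 weeks received nanoparticles subcutaneously in the hock, and polyA RNA was sequenced from cells sorted out of the draining popliteal and inguinal nodes. The particles carried the TLR9 ligand CpG alone or together with ovalbumin (OVA). Per the series description hosts were engrafted with OT-I and OT-II cells, T cells with transgenic receptors for OVA. This did not hold for every group, since DC without OT cells were sequenced too. T cells labelled CD4+ OT-II were sorted 20 h after particles with OVA and CpG (3 libraries) or with bovine serum albumin (BSA, which the OT-II receptor does not recognize) and CpG (3 libraries).

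DC came from 3 experiments. A time course held 2 libraries each from wild-type mice at 12 h and 24 h after OVA and CpG particles, at 12 h and 24 h after particles with CpG only, and from non-immunized mice. An experiment on costimulation, at 12 h, had 2 libraries for each of 4 groups: Cd80/86 -/- DC with OVA and OT cells, wild-type DC with OVA and OT cells, wild-type DC with BSA and OT cells, and wild-type DC with OVA and no OT cells. An experiment at 20 h held 5 libraries each after OVA and CpG particles, after BSA and CpG particles, and from non-immunized mice. Whether Cd80 and Cd86 were missing from DC alone, and whether the hosts of the time course and the 20 h experiment carried OT cells, is not given in the sources used here. The labels also leave unsaid if replicates are different animals. In DC at 20 h, Y-linked transcripts ran from 5.96 to 301 CPM (counts scaled to the total of the library) in non-immunized libraries. They ran from 2.55 to 222 CPM with OVA and from 0.757 to 9.55 CPM with BSA. The replicates of the non-immunized and OVA groups at 20 h were thus not all repeats of a single sample. In the other groups and experiments the spread that the p-values rest on may be technical. In those groups at 20 h part of it may be.

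A naive T cell holds FOXO1, encoded by Foxo1, in its nucleus. There this forkhead factor drives Klf2 and Il7r, and the zinc finger factor KLF2 in turn drives S1pr1, the receptor with which T cells follow sphingosine 1-phosphate out of the node. When the T cell receptor is engaged, PI3K and AKT move FOXO1 to the cytoplasm, and the surface protein CD69 pulls S1PR1 inside the cell, which holds the activated cell in the node. Il7r encodes the alpha chain of the interleukin-7 receptor, on which naive T cells depend for survival. Tcf7 and Lef1 encode the HMG-box factors TCF1 and LEF1 of naive and memory T cells, and Txnip encodes a thioredoxin-binding arrestin that restrains glucose uptake.

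Promoter sequences are shown because the genes of the circuit have known upstream factors in common and were lower together in the T cell libraries. Of the 7 genes, 6 matched the RefSeq promoter table (build GRCm38.p6) with 10 start sites in all, and S1pr1 did not match. The window was the 250 bases before each start. Each window was searched on both strands for the forkhead core GTAAACA. It was also searched for CCACCC, the box bound by KLF factors. The core bound by TCF and LEF factors was spelled CTTTGA, and the palindromic E-box CACGTG. Matches stand in capitals, as their reverse complement where they lie on the other strand, and no match overlaps another in the windows printed. The Txnip window, chr3:96557707-96557956 on the plus strand, holds the forkhead core. The Klf2 window, chr8:72318812-72319061 on the plus strand, holds a KLF box. Lef1 had several starts. The window of its most downstream start, chr3:131156044-131156293 on the plus strand, holds 2 TCF and LEF cores and an E-box. Its other windows, which begin at 131110047, 131110073 and 131112541, hold neither.
Txnip: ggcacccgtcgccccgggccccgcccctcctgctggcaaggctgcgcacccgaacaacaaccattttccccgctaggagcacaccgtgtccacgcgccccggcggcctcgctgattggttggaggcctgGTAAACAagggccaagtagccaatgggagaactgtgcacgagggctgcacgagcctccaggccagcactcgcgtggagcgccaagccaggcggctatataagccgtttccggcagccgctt
Klf2: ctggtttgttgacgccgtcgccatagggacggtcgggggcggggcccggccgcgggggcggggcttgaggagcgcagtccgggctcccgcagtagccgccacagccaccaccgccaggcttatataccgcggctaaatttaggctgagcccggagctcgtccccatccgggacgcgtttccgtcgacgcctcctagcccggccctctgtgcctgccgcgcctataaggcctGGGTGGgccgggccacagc
Lef1: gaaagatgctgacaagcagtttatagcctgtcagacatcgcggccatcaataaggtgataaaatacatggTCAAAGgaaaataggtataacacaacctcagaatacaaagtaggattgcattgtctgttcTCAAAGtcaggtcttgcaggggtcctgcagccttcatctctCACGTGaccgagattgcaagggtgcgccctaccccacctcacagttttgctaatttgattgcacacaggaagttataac

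Over all 32851 promoter windows of this length, the forkhead core was present in 3.17%, the KLF box in 28.1%, the TCF and LEF core in 13.8% and the E-box in 6.02%. Among the 6 matched genes the forkhead core was present in the window of Txnip and of no other, and the KLF box in windows of Klf2, Lef1 and Tcf7. Lef1 was the matched gene with the TCF and LEF core and with the E-box, in the window printed only. The shares are per window, and a gene with several starts, such as Lef1, had several windows. A match is a description of letters, and nothing was measured at these windows in the series.

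The T cell libraries carried all 15 listed T cell markers, of which 1 was called higher and 3 lower with OVA, and Cd4 stood at 151, 86.7 and 119 normalized counts in OVA libraries and at 131, 127 and 122 in BSA libraries. Other lineages were present too. Cd8a, which CD4+ T cells lack, stood at 26.2, 118 and 96.0 normalized counts in OVA libraries and at 96.4, 92.7 and 136 in BSA libraries. The summed level of 9 B cell markers was 65.1, 720 and 361 in OVA libraries and 798, 461 and 633 in BSA libraries, and that of 4 conventional DC markers was 186, 1264 and 753 against 1505, 1178 and 1194. The X-inactivation transcript Xist was at 3.15, 2.02 and 50.0 in OVA libraries and at 87.5, 98.0 and 94.8 in BSA libraries, while the Y-linked Ddx3y was detected in all 6. Every OVA library was below every BSA library in Xist, so the sex of the cells and particle cannot be told apart. No term for sex was fitted in T cells. Recovered reads numbered 423594, 614630 and 1316341 in OVA libraries and 271134, 155088 and 402391 in BSA libraries, so depth and particle cannot be told apart.

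In T cells 20 h after OVA particles, transcripts of all 7 genes were lower than after BSA particles in every pair of libraries, to between 37.5% (S1pr1) and 66.2% (Tcf7) of the BSA mean. The test called 6 of the 7 lower, all but Tcf7, where 5.04% of the 6452 genes tested were called lower. Values are normalized counts, the authors' counts divided by a size factor per library, in the order of replicates 1, 2 and 3. Changes are log2(OVA / BSA) on normalized counts + 1 with their SE, from limma with Benjamini-Hochberg adjustment over all genes tested, called below an adjusted p of 0.05.

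Foxo1, the factor at the head of the circuit, stood at 107, 131 and 126 in OVA libraries, against 175, 265 and 228 in BSA libraries. Its mean was 121 ± 12.7 with OVA and 223 ± 45.1 with BSA (SD, n = 3 each), a log2 change of -0.85 ± 0.21 (limma adjusted p = 0.0185). The groups did not overlap, and within the OVA group replicate 1 was lowest.

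Klf2, the factor between FOXO1 and S1PR1, stood at 40.9, 84.7 and 62.4 in OVA libraries, against 123, 117 and 112 in BSA libraries. The OVA libraries spread widely (mean 62.7 ± 21.9) while the BSA libraries lay close together (117 ± 5.55, SD, n = 3 each). The log2 change was -0.95 ± 0.26 (limma adjusted p = 0.0297).

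S1pr1, the egress receptor, stood at 16.8, 47.7 and 38.0 in OVA libraries, against 71.2, 103 and 98.8 in BSA libraries. It showed the lowest OVA to BSA ratio of the 7, with means of 34.2 ± 15.8 and 91.1 ± 17.4 (SD, n = 3 each) and a log2 change of -1.49 ± 0.34 (limma adjusted p = 0.0149). OVA replicate 1 rested on 16 reads. The 95% interval of the change ran from -2.24 to -0.75.

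Il7r stood at 28.3, 61.2 and 57.4 in OVA libraries, against 113, 109 and 88.7 in BSA libraries. Its means were 49.0 ± 18.0 and 103 ± 12.9 (SD, n = 3 each), and the log2 change was -1.13 ± 0.29 (limma adjusted p = 0.0234). OVA replicate 1 was again the lowest library, from 27 reads.

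Tcf7 stood at 265, 247 and 202 in OVA libraries, against 307, 418 and 351 in BSA libraries. Its means were 238 ± 32.4 and 359 ± 56.1 (SD, n = 3 each), and the log2 change of -0.59 ± 0.19 missed the threshold (limma adjusted p = 0.0514). Tcf7 differed in pattern from the other 6 genes, since OVA replicate 1 was its highest OVA library. Lef1, its relative, stood at 40.9, 62.5 and 54.0 in OVA libraries, against 97.9, 109 and 94.8 in BSA libraries. The Lef1 means were 52.5 ± 10.9 and 100.4 ± 7.23 (SD, n = 3 each), with a log2 change of -0.94 ± 0.23 (limma adjusted p = 0.0185).

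Txnip stood at 50.4, 91.4 and 69.2 in OVA libraries, against 218, 169 and 151 in BSA libraries. Its means were 70.3 ± 20.5 and 179 ± 34.7 (SD, n = 3 each), and with a log2 change of -1.36 ± 0.25 it had the smallest adjusted p of the 7 (limma adjusted p = 0.00635). The highest OVA library lay well under the lowest BSA library.

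**Figure D1:**
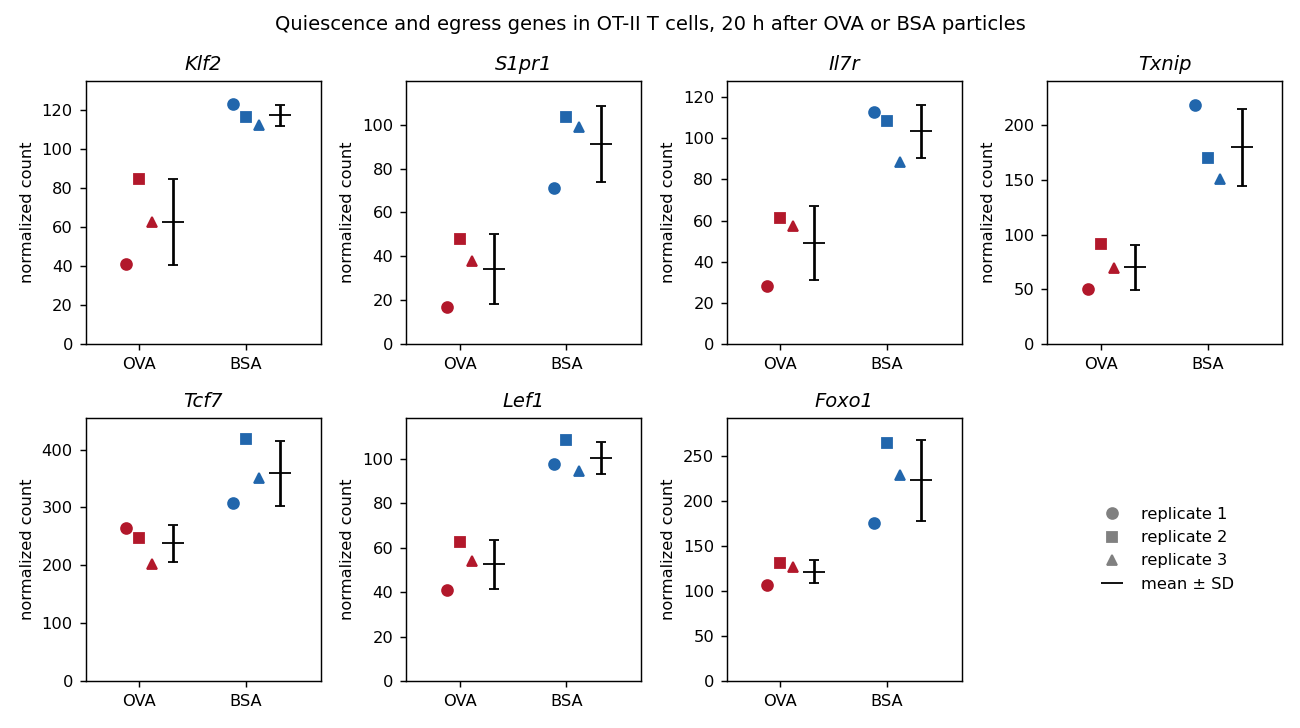
Normalized counts (y axis, from 0) of each gene in OT-II T cells 20 h after OVA particles (left, red) or BSA particles (right, blue); each point is 1 library, its shape gives the replicate number, and the bar beside each group is the mean with its SD (n = 3). In all 7 panels the 3 OVA libraries lie below the 3 BSA libraries, and OVA replicate 1 is lowest in 6 panels.

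Complete separation of the groups in the OVA-lower direction was met by 15.4% of all genes tested, and the median change was -0.95 over the 7 genes and 0.04 over all 6452 genes. In percent of the summed level of the 15 T cell markers of the same library, the 3 OVA libraries lay below the 3 BSA libraries for 7 of the 7 genes. The share of all genes separated on that scale was not computed, so this count has no background to be read against. S1pr1 was at 0.57% to 1.80% of that sum with OVA and at 2.34% to 3.03% with BSA, and Txnip at 1.71% to 3.44% with OVA and at 4.62% to 7.17% with BSA. In bulk libraries, fewer cells of a type and less RNA per cell cannot be told apart. OVA replicate 1, lowest for 6 of the 7 genes, was also lowest in B cell, DC and CD8 markers, and the part of other cells in the result was not tested.

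All 91 combinations of the 7 genes with 13 alternative settings kept a change below 0. The number of the 7 genes called lower depended on single libraries. It was 4, 2 and 1 without BSA replicates 1, 2 and 3, and 2, 7 and 3 without OVA replicates 1, 2 and 3. The number of all genes called lower moved too, from 325 with all libraries. It was 158, 170 and 83 without BSA replicates 1, 2 and 3. Without OVA replicates 1, 2 and 3 it was 103, 646 and 124, with 6168 to 6222 genes tested in these runs. Txnip was called under all 13 settings, and S1pr1 under all but that without BSA replicate 3 (log2 change -1.42, limma adjusted p = 0.0582). The calls on Foxo1 and Lef1 were lost without BSA replicate 2 or 3 or OVA replicate 1 or 3, that on Klf2 also without BSA replicate 1, and that on Il7r without any 1 BSA replicate or OVA replicate 1, with limma adjusted p of 0.0511 to 0.0895. Tcf7 was called without OVA replicate 2 (limma adjusted p = 0.0391), with edgeR (adjusted p = 0.0331), DESeq2 (adjusted p = 0.045), scaling to the library total (limma adjusted p = 0.0322) and a pseudocount of 5 (limma adjusted p = 0.0466). In the authors' deposited table the adjusted p of Tcf7 was 0.0419 with a log2 fold change of -0.59, and that of Txnip was 9.07e-05.

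Further genes of the same circuit were read beside the 7. Cd69, which encodes the protein that takes S1PR1 off the surface, rose, with 294, 156 and 187 normalized counts in OVA libraries against 125, 95.3 and 70.3 in BSA libraries (log2 change 1.11 ± 0.27, limma adjusted p = 0.0186). That call was lost without BSA replicate 3 (0.90, limma adjusted p = 0.0824) and without OVA replicate 1 (0.85, limma adjusted p = 0.0615). Cdkn1b, which encodes the cell cycle inhibitor p27 and is a known FOXO target, fell, with 13.6, 21.5 and 18.5 in OVA libraries against 44.5, 34.4 and 47.9 in BSA libraries (log2 change -1.20 ± 0.28, limma adjusted p = 0.0158). Its call was lost without BSA replicate 3, OVA replicate 1 or OVA replicate 3 (limma adjusted p of 0.0623, 0.0541 and 0.0514).

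Klf3, a relative of Klf2, had a change of -0.85 ± 0.30 (limma adjusted p = 0.0752), and Bcl2, the survival factor maintained by interleukin-7, one of -0.81 ± 0.31 (limma adjusted p = 0.0911), neither called, although Klf3 was called with edgeR (-1.04, adjusted p = 0.0268) and without BSA replicate 2 (limma adjusted p = 0.0286). Ccr7, the receptor for entry into the T cell zone, stood at 160, 120 and 146 against 166, 130 and 175, and its change of -0.15 had a 95% interval from -0.59 to 0.30. Foxo3 is not analysed here.

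**Figure D2:**
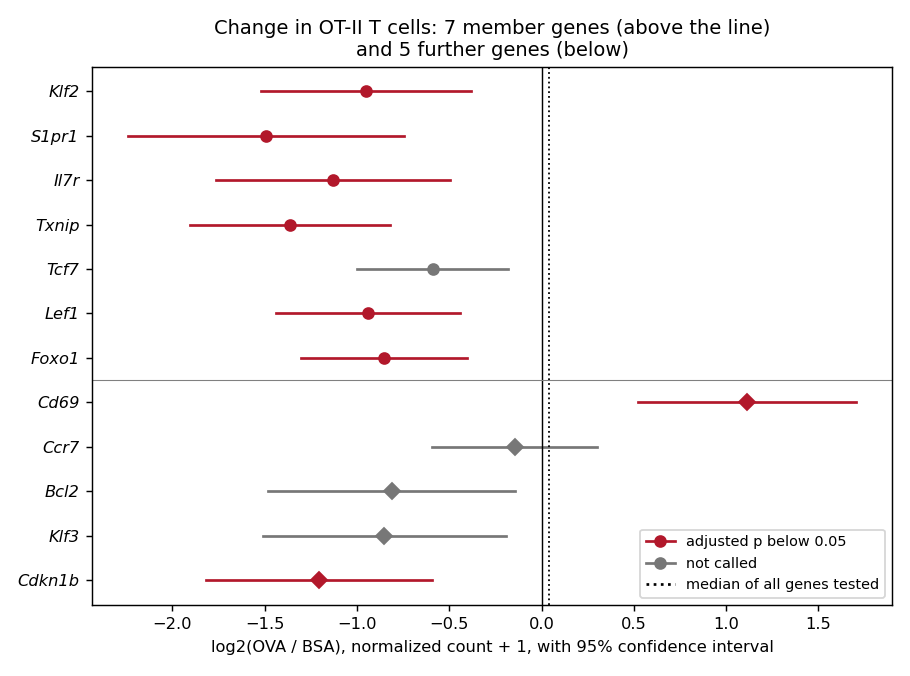
Log2 ratio of OVA to BSA libraries (x axis, normalized count + 1) with 95% confidence interval for the 7 genes (circles, above the line) and 5 further genes (diamonds); red marks an adjusted p below 0.05 and the dotted line is the median of all 6452 genes tested. Intervals of the 7 genes all lie below 0, Cd69 lies above it, and that of Ccr7 spans 0.

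Of 24 genes of lymph node entry, retention and egress, 20 could be tested, and 1 rose and 10 fell (median change -0.73, against 0.04 over all genes). Of all genes tested, 5.04% were called lower and 10.8% higher. This list and the other lists of 24 genes below were chosen with earlier results of these data known. Their counts and medians beside those of all genes are therefore descriptions. Coro1a, which encodes the actin regulator coronin 1A, fell by 0.74 on the log2 scale (limma adjusted p = 0.0103). The integrin subunit gene Itgb7 fell by 1.11, Arrb2, which encodes an arrestin that takes receptors off the surface, by 1.20, and Rac2, a GTPase of cell migration, by 0.76. The 10 that fell ranged from -1.85 to -0.67.

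Of 24 regulators and targets of PI3K, AKT and FOXO, 19 could be tested, and 0 rose and 6 fell (median -0.54, with 5.04% of all genes called lower and 10.8% higher). Sesn1, a stress-induced FOXO target, had 11.5, 17.5 and 20.1 normalized counts in OVA libraries against 54.9, 53.0 and 43.8 in BSA libraries (log2 change -1.60 ± 0.28, limma adjusted p = 0.00575). Ddit4, which encodes an mTORC1 inhibitor, fell by 1.46, and Pik3ip1, which encodes a negative regulator of PI3K, by 1.37.

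Of 24 genes listed as holding naive T cells at rest, 20 could be tested, and 0 rose and 5 fell (median -0.51, with 5.04% of all genes called lower and 10.8% higher). Dgka, which encodes the diacylglycerol kinase that damps T cell receptor signals, had 108, 207 and 166 in OVA libraries against 412, 487 and 366 in BSA libraries (log2 change -1.43 ± 0.24, limma adjusted p = 0.00421). Klf13 fell by 1.15 and Elf4, a factor that restrains proliferation of naive CD8 T cells, by 1.02, and Ms4a4b, a membrane protein of T cells, by 0.64.

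Of 24 partners of TCF1 and LEF1, 22 could be tested, and 0 rose and 3 fell (median -0.36, with 5.04% of all genes called lower), namely Ets1 (by 1.02), the co-repressor gene Aes (by 0.74) and Bcl11b (by 0.69), which is also among the 15 T cell markers.

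Of 24 signalling genes downstream of the interleukin-7 receptor, 23 could be tested, and 4 rose and 0 fell, where 10.8% of all genes were called higher, and the list median of 0.01 was close to the 0.04 of all genes. Bcl2l1, which encodes the survival protein BCL-XL, had 84.0, 40.3 and 78.4 normalized counts in OVA libraries against 19.3, 7.94 and 7.13 in BSA libraries (log2 change 2.52 ± 0.39, limma adjusted p = 0.00347). Its BSA values rested on 13, 3 and 7 reads. The death factor gene Bax had a change of 1.20, the kinase gene Pim1 one of 1.04 (11 to 22 reads per BSA library) and the transcription factor gene Stat5a one of 1.07 (5 to 20 reads per BSA library).

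Of 24 genes of thioredoxin biology, arrestin-domain relatives of Txnip and glucose uptake, 18 could be tested, and 4 rose and 0 fell (median 0.33). Txn1, which encodes the thioredoxin that TXNIP binds, had 256, 163 and 227 in OVA libraries against 113, 66.2 and 104 in BSA libraries (log2 change 1.19 ± 0.25, limma adjusted p = 0.0106). The peroxiredoxin gene Prdx1 had a change of 0.95, the hexokinase gene Hk2 one of 2.12 (1 to 4 reads per BSA library) and the mitochondrial thioredoxin gene Txn2 one of 0.76. Across all genes tested, 10.8% were called higher.

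Of the 24 further genes named here as changed, 8 were called under all 13 alternative settings, namely Sesn1, Ddit4, Pik3ip1, Dgka, Klf13, Bcl2l1, Bax and Txn1. The list counts depended on single libraries. So did the calls over all genes, which numbered 1025 in the main run and 369 to 1467 over the 13 alternative settings. Without BSA replicate 3, calls in either direction numbered 1 in the entry and egress list, 3 in the PI3K and FOXO list, 2 in the resting state list, 0 among TCF1 and LEF1 partners, 2 in the interleukin-7 list and 1 in the thioredoxin list. Without OVA replicate 2 they numbered 14, 7, 9, 4, 8 and 5 in the same order. Without OVA replicate 1 they numbered 4, 3, 2, 1, 3 and 1, and without OVA replicate 3 they numbered 6, 3, 2, 1, 2 and 1. Without BSA replicate 1 the entry and egress list had 5 calls and the thioredoxin list 2, and without BSA replicate 2 the partners of TCF1 and LEF1 had 1.

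**Figure D3:**
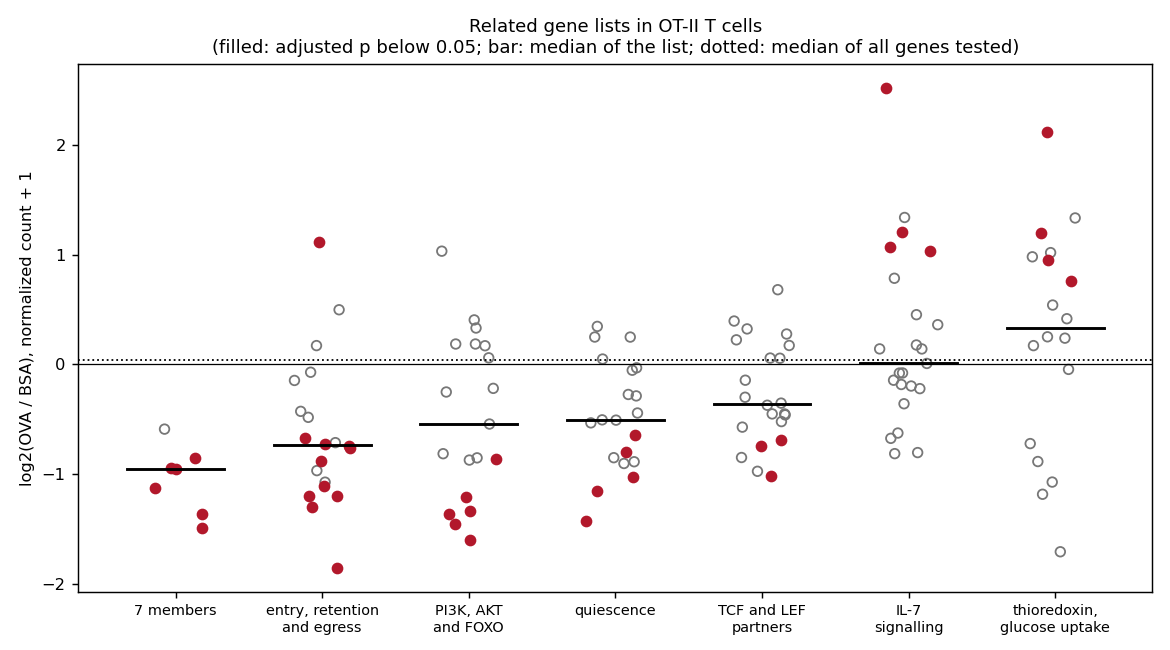
Log2 ratio of OVA to BSA libraries (y axis, normalized count + 1) for the 7 genes and for the tested genes of 6 related lists; each point is a gene, filled where its adjusted p was below 0.05, the bar is the median of the list and the dotted line that of all genes tested. Medians run from -0.95 for the 7 genes to 0.33 for the thioredoxin and glucose uptake list.

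Within the 6 T cell libraries, Pearson r of log2 levels was 0.84 to 0.98 over the 15 pairs without Tcf7 and 0.61 to 0.88 over the 6 pairs with it, a description over 6 libraries that share the split by particle. The 5 other genes most like the mean pattern of the 7 were Ptpn18, Dgka, Tmc6, Klhl6 and Zfp626, each with r of 0.995 or 0.996 over the 6 libraries. Ptpn18, which encodes a tyrosine phosphatase, had 212, 300.4 and 270 normalized counts in OVA libraries against 406, 461 and 439 in BSA libraries.

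The libraries labelled DC were read for context, and they carried T cell markers to differing extents. In CPM, counts scaled to the total of the library, the 15 T cell markers summed to between 2422 and 6689 in the time course, to between 38.8 and 1243 in the costimulation experiment and to between 53.0 and 160 in the 20 h experiment. In the sorted T cells the same sum was 6610, 6432 and 6227 CPM with OVA and 7565, 8427 and 7967 CPM with BSA. The non-immunized DC libraries of the time course stood at 6509 and 6689 CPM, near the OVA T cell libraries. With T cell markers at that level, the time course cannot tell if transcripts of the circuit came from DC or from T cells. The totals behind these CPM cover 7830 genes in T cells and 24421 in the time course, so the levels are not strictly comparable. The 10 conventional DC markers summed to between 1332 and 6342 CPM in the time course and to between 8737 and 21151 CPM in the 20 h experiment. Totals per DC library ran from 367209 to 2052904 counts.

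In CPM, the transcripts of Foxo1, Tcf7 and Lef1 fell in the time course by 12 h after either particle, and so did S1pr1 and Txnip. Changes are log2 ratios with SE from the edgeR quasi-likelihood test with Benjamini-Hochberg adjustment. Both particles were compared with the same 2 non-immunized libraries. Of the 7 genes, 6 were called lower at 12 h after CpG particles (4.65% of 9428 genes tested), 1 at 24 h after CpG particles (3.05%), 5 at 12 h after OVA particles (4.04%) and 3 at 24 h after OVA particles (3.92%).

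Foxo1 stood at 476 and 542 CPM in non-immunized libraries, at 201 and 207 at 12 h after OVA particles and at 235 and 246 at 24 h. With CpG-only particles it stood at 187 and 125 at 12 h and at 243 and 308 at 24 h. In the main fit it was the only gene of the 7 called lower in all 4 comparisons with non-immunized DC. Its changes were -1.09 ± 0.20 (OVA at 12 h), -0.86 ± 0.20 (OVA at 24 h), -1.48 ± 0.21 (CpG at 12 h) and -0.67 ± 0.20 (CpG at 24 h), for edgeR adjusted p of 0.00147, 0.00712, 0.000113 and 0.0361. The last of these calls was lost with DESeq2 (adjusted p = 0.0656).

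Lef1 stood at 199 and 208 CPM in non-immunized libraries, at 47.2 and 36.8 at 12 h after OVA particles and at 81.9 and 94.2 at 24 h. With CpG-only particles it stood at 42.8 and 56.7 at 12 h and at 106 and 247 at 24 h. At 12 h the changes were -2.02 ± 0.31 with OVA (edgeR adjusted p = 0.000291) and -1.83 ± 0.31 with CpG only (edgeR adjusted p = 0.000662), and no immunized library reached a non-immunized one. From 12 h to 24 h after CpG particles Lef1 rose, with a change of 1.87 ± 0.32 (edgeR adjusted p = 0.00153), while the 2 libraries at 24 h lay far apart.

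Tcf7 stood at 1114 and 1173 CPM in non-immunized libraries, at 448 and 376 at 12 h after OVA particles and at 518 and 757 at 24 h. With CpG-only particles it stood at 416 and 321 at 12 h and at 569 and 790 at 24 h. It fell at 12 h by 1.24 with OVA (edgeR adjusted p = 0.000752) and by 1.42 with CpG only (edgeR adjusted p = 0.000215). At 24 h the change with OVA was -0.64 (edgeR adjusted p = 0.0525).

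S1pr1 stood at 420.0 and 397 CPM in non-immunized libraries, at 145 and 208 at 12 h after OVA particles and at 145 and 207 at 24 h. With CpG-only particles it stood at 155 and 115 at 12 h and at 193 and 245 at 24 h. It was called lower at 12 h (-0.99 ± 0.22, edgeR adjusted p = 0.00635) and at 24 h (-1.01 ± 0.22, edgeR adjusted p = 0.00533) after OVA, and at 12 h after CpG only (-1.37 ± 0.23, edgeR adjusted p = 0.000534). At 24 h after CpG only S1pr1 was not called in the main fit. There it was called with no filter on low counts (-0.71, edgeR adjusted p = 0.0141) and with a replicate block (-0.70, edgeR adjusted p = 0.0464). Txnip, at 600.2 and 785 CPM in non-immunized libraries, stood at 380.1 and 343 at 12 h after OVA and at 330.1 and 376 at 12 h after CpG only, with changes of -0.70 ± 0.21 (edgeR adjusted p = 0.0363) and -0.75 ± 0.21 (edgeR adjusted p = 0.0226).

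Among the comparisons of the time course with non-immunized DC, Il7r was called once and Klf2 never. Il7r, at 999 and 1043 CPM in non-immunized libraries, was called lower at 12 h after CpG only, at 522 and 334 CPM (-1.03 ± 0.25, edgeR adjusted p = 0.00803), and stood at 598 and 730.4 at 12 h after OVA. Klf2, at 397 and 419 CPM in non-immunized libraries and between 254 and 329 CPM in the 8 immunized ones, was called in none of the 9 comparisons by edgeR (smallest adjusted p = 0.104, at 12 h after CpG only, change -0.43 ± 0.17).

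**Figure D4:**
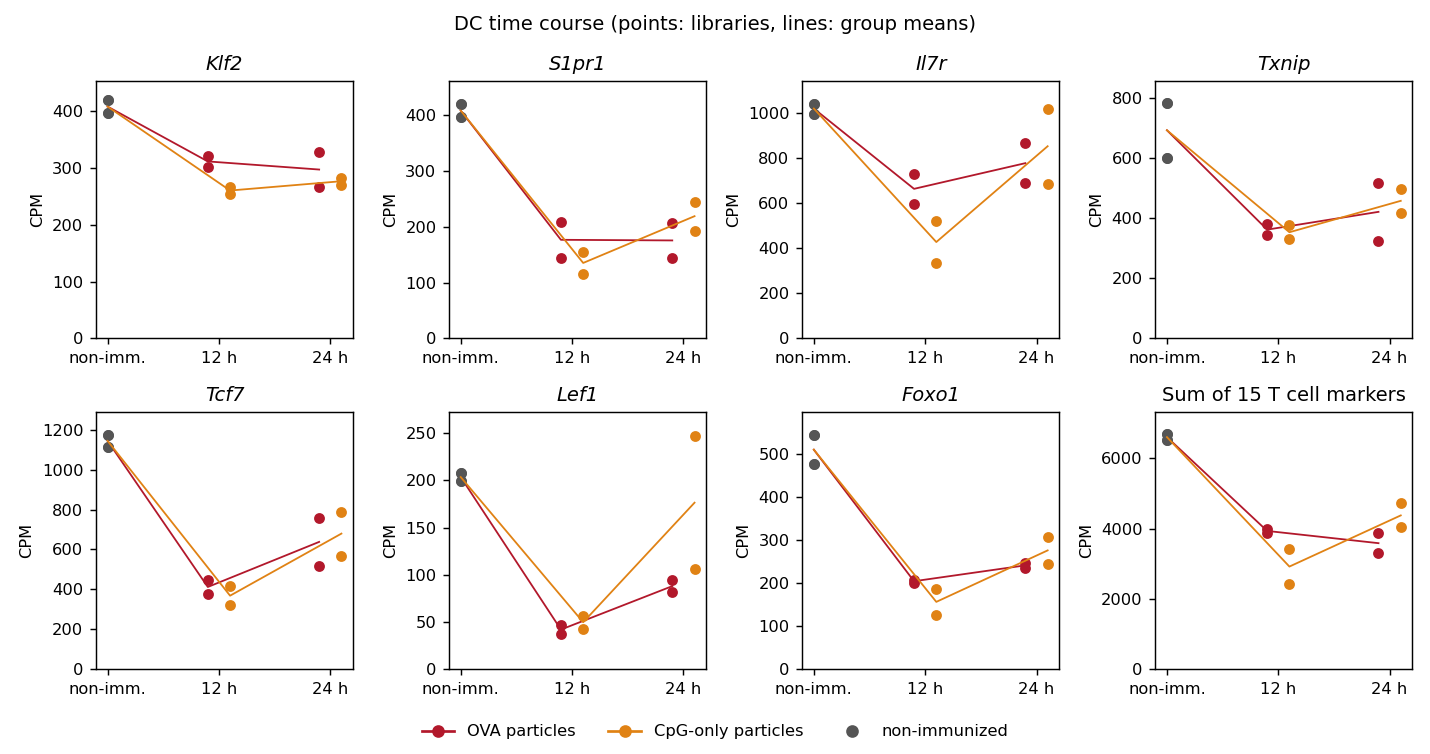
CPM (y axes, from 0) of the 7 genes and of the sum of 15 T cell markers in the DC time course, for non-immunized libraries and at 12 h and 24 h after OVA (red) or CpG-only (orange) particles; points are libraries (2 per group) and lines join group means. The marker sum is highest in the non-immunized libraries, as are the means of all 7 genes.

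Markers of T cells and of other cells moved in the same libraries. The summed level of the 15 markers was 6509 to 6689 CPM in non-immunized libraries, 3877 to 3987 at 12 h and 3303 to 3864 at 24 h after OVA, and 2422 to 3415 at 12 h and 4033 to 4714 at 24 h after CpG only. Called lower against non-immunized DC were 8 (OVA at 12 h), 9 (OVA at 24 h), 13 (CpG at 12 h) and 3 (CpG at 24 h) of the 15 markers. The 8 neutrophil markers summed to 145 to 183 CPM in non-immunized libraries, 2134 to 2137 at 12 h and 351 to 2372 at 24 h after OVA, and 12668 to 16405 at 12 h and 70.7 to 591 at 24 h after CpG only. At 12 h, 6 of 7 neutrophil markers tested and 4 of 8 B cell markers tested were called higher with either particle, and 6 of 7 conventional DC markers tested with CpG only and 0 with OVA. The part of these cells in the changes of the 7 genes was not tested. In percent of the marker sum, Lef1 was at 0.95% and 1.18% at 12 h after OVA and at 3.06% and 3.11% in non-immunized libraries, and Tcf7 at 9.70% to 11.2% and at 17.1% to 17.5%. Foxo1 was at 5.04% to 5.34% at 12 h after OVA and at 7.32% to 8.11% in non-immunized libraries, and S1pr1 at 3.63% to 5.38% and at 5.93% to 6.45%. Txnip overlapped, at 8.86% to 9.53% and at 9.22% to 11.7%. Klf2 was at 7.80% to 8.04% at 12 h after OVA and at 6.10% to 6.27% in non-immunized libraries. Il7r was at 15.0% to 18.8% at 12 h after OVA and at 15.3% to 15.6% in non-immunized libraries. At 12 h after CpG only, Lef1 was at 1.25% to 2.34%, Tcf7 at 12.2% to 13.2%, Foxo1 at 5.18% to 5.48% and S1pr1 at 4.55% to 4.74%. Txnip was then at 9.67% to 15.5%, Klf2 at 7.82% to 10.5% and Il7r at 13.8% to 15.3%.

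OVA against CpG-only particles gave 0 calls among the 7 genes at 12 h (2.46% of all genes called) and 0 at 24 h (0% called). At an unadjusted p under 0.05 there was 1 gene at each time, Il7r at 12 h (0.64 ± 0.25) and Lef1 at 24 h (-1.03 ± 0.29), and DESeq2 called 0 at both. With no filter on low counts, Il7r was called at 12 h (0.69, edgeR adjusted p = 0.0271) and Lef1 at 24 h (-1.04, edgeR adjusted p = 0.00313). Without CpG-only replicate 1 of 24 h, Lef1 was called lower with OVA at 24 h (-1.45, edgeR adjusted p = 0.000464). The test of whether the OVA effect differed between 24 h and 12 h gave 0 calls (3.38% of all genes), with 2 genes at an unadjusted p under 0.05 (S1pr1 and Il7r), and DESeq2 called 0. It called Lef1 without CpG-only replicate 1 of 24 h (-1.29, edgeR adjusted p = 0.0228). From 12 h to 24 h, 4 of the 7 genes rose with CpG only (3.36% of all genes called higher), namely Il7r, Tcf7, Lef1 and Foxo1, as did 5 of the 15 T cell markers. With OVA 0 were called (8.90% of all genes), with 2 at an unadjusted p under 0.05, Tcf7 (0.61) and Lef1 (1.03), and 0 by DESeq2. With all libraries kept, this rise of Lef1 was called with no filter on low counts (0.97, edgeR adjusted p = 0.00914). It was also called with only the groups compared in the fit (1.04, edgeR adjusted p = 0.0159). Tcf7 and Lef1 were called as well once either CpG-only library of 24 h was left out.

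Of the 19 calls in the time course, 8 held under all 15 alternative settings: Foxo1, Lef1 and Tcf7 at 12 h after both particles, S1pr1 at 12 h after CpG only, and the rise of Lef1 with CpG only. The number of calls ran from 13 to 23 as each library was left out, with 14 and 13 without non-immunized replicates 1 and 2. The call on S1pr1 at 12 h after OVA was lost without non-immunized replicate 1 (-0.94, edgeR adjusted p = 0.0626) and without OVA replicate 1 of that time (-0.72, edgeR adjusted p = 0.150). The calls at 24 h after OVA were lost without non-immunized replicate 1 (S1pr1, Lef1), non-immunized replicate 2 (Lef1, Foxo1), OVA replicate 1 of that time (all 3) and OVA replicate 2 (Lef1, Foxo1). Those at 12 h after CpG only were lost without non-immunized replicate 2 (Il7r, Txnip), CpG-only replicate 1 (Txnip) and CpG-only replicate 2 (Il7r, Txnip). The rises of Il7r, Tcf7 and Foxo1 from 12 h to 24 h were lost without CpG-only replicate 2 of 12 h, and that of Il7r also without replicate 1 of 24 h and those of Tcf7 and Foxo1 without replicate 2 of 24 h; that of Foxo1 was lost without OVA replicate 1 of 12 h as well. With all libraries kept, these 3 rises were lost where only the groups compared were fitted (edgeR adjusted p of 0.123, 0.0993 and 0.138), and the call on Lef1 at 24 h after OVA was lost with DESeq2 (adjusted p = 0.0675). Against non-immunized DC, S1pr1 at 24 h after CpG only was gained with no filter on low counts or with a replicate block. Tcf7 at 24 h after OVA was gained with no filter or with only the groups compared. Calls were gained at 24 h against non-immunized DC on S1pr1 and Tcf7 without CpG-only replicate 2 (CpG only), on Tcf7 without either CpG-only library of 24 h (OVA), and on Tcf7 and Txnip without OVA replicate 2 (OVA). The call on Foxo1 at 24 h after CpG only was lost under 8 of 15 settings, 6 of them a library left out, and that on Txnip at 12 h after OVA under 7, 6 of them a library left out.

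In the costimulation experiment at 12 h, S1pr1 and Lef1 were near the floor. S1pr1 lay between 5.64 and 17.9 CPM, and Lef1 had 0 counts in 5 of the 8 libraries and at most 8 counts in any, so it did not pass the filter. The other genes were clearly present, with 32.1 to 141 CPM for Tcf7, 38.8 to 86.8 for Il7r, 29.7 to 50.6 for Foxo1, 54.3 to 245 for Klf2 and 79.6 to 156 for Txnip. No gene of the 6 tested was called in any of 3 comparisons. The share of all genes called was 0% for Cd80/86 -/- against wild type, 0.0107% for OVA against BSA with OT cells and 2.60% for OVA with against without OT cells. At an unadjusted p under 0.05 there were 1, 0 and 1 genes in these comparisons, and DESeq2 called 0 in each.

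Tcf7 was the gene at an unadjusted p under 0.05 in both cases. It stood at 38.1 and 41.0 CPM in Cd80/86 -/- DC and at 112 and 141 CPM in wild-type DC, both with OVA and OT cells, for a change of -1.75 ± 0.47 (edgeR adjusted p = 0.274). This fall was called with no filter on low counts (edgeR adjusted p = 0.000219) and with only the groups compared in the fit (edgeR adjusted p = 0.000533). With BSA and OT cells it stood at 123 and 63.7 CPM, and with OVA and no OT cells at 32.1 and 91.8 CPM. T cell markers summed to 118 and 185 CPM in Cd80/86 -/- DC and to 57.1 and 38.8 CPM in wild-type DC with OVA and OT cells. Without replicate 2 of wild-type DC with OVA and no OT cells, the rise of Tcf7 with OT cells was called (2.01, edgeR adjusted p = 0.0438). The libraries with OVA and OT cells and those with OVA alone also differed in NK cell markers, which summed to 109 to 247 CPM and to 2283 to 5648 CPM, and in T cell markers, at 38.8 to 57.1 CPM and 574 to 1243 CPM, and the part of these cells in the Tcf7 values was not tested.

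At 20 h, Txnip was lower in DC of immunized mice. It stood at 32.2, 51.2, 52.1, 42.5 and 39.0 CPM after OVA particles, at 36.6, 62.2, 58.4, 66.1 and 30.3 CPM after BSA particles, and at 97.4, 98.1, 103, 98.3 and 76.9 CPM in non-immunized mice. Neither immunized group overlapped the non-immunized one, as held for 12.0% of genes with OVA and 7.61% with BSA. The changes were -0.97 ± 0.19 with OVA (edgeR adjusted p = 0.00132) and -0.75 ± 0.19 with BSA (edgeR adjusted p = 0.0200), both against the same 5 non-immunized libraries.

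Klf2, at low counts throughout (8 to 39 per library), stood at 19.6, 12.0, 12.7, 11.3 and 5.75 CPM after OVA particles, at 12.5, 22.8, 20.1, 17.5 and 12.9 CPM after BSA particles and at 25.2, 28.9, 21.8, 23.8 and 16.6 CPM in non-immunized mice. With OVA its change was -0.78 ± 0.26 (edgeR adjusted p = 0.0450), although OVA replicate 1 overlapped the non-immunized range. This call was lost under 13 of 21 settings, including DESeq2 (adjusted p = 0.0721), a term for Y-linked transcripts (edgeR adjusted p = 0.0573) and leaving out non-immunized replicate 1, 2, 3 or 4, OVA replicate 2, 3, 4 or 5 or BSA replicate 3. Over the 15 libraries the log2 level of Klf2 had an r of 0.72 with the summed T cell markers, the closest of the 7 genes, and in percent of that sum Klf2 was at 10.8% to 16.2% with OVA and 15.8% to 22.1% in non-immunized mice; the part of T cells in this call was not tested.

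Of the 6 genes tested at 20 h, 2 were thus called lower with OVA against non-immunized (6.04% of 9159 genes), 1 with BSA against non-immunized (1.77%) and 0 with OVA against BSA (0% of all genes in either direction, 0 of the 6 at an unadjusted p under 0.05, and 0 by DESeq2). For OVA against BSA the changes were -0.21 ± 0.19 for Txnip and -0.49 ± 0.26 for Klf2. Tcf7 had a median of 178 CPM with OVA, 146 with BSA and 140.1 in non-immunized mice (OVA against non-immunized 0.53 ± 0.20, edgeR adjusted p = 0.0694; 0.65 without OVA replicate 5, edgeR adjusted p = 0.0190, and 0.59 with a term for Y-linked transcripts, edgeR adjusted p = 0.0327). Il7r and Foxo1 overlapped among all 3 groups, at 68.7 to 157 and 51.6 to 112 CPM over the 15 libraries, and S1pr1 (4.47 to 16.3 CPM) and Lef1 (0 to 5.45 CPM, not tested) stayed low.

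**Figure D5:**
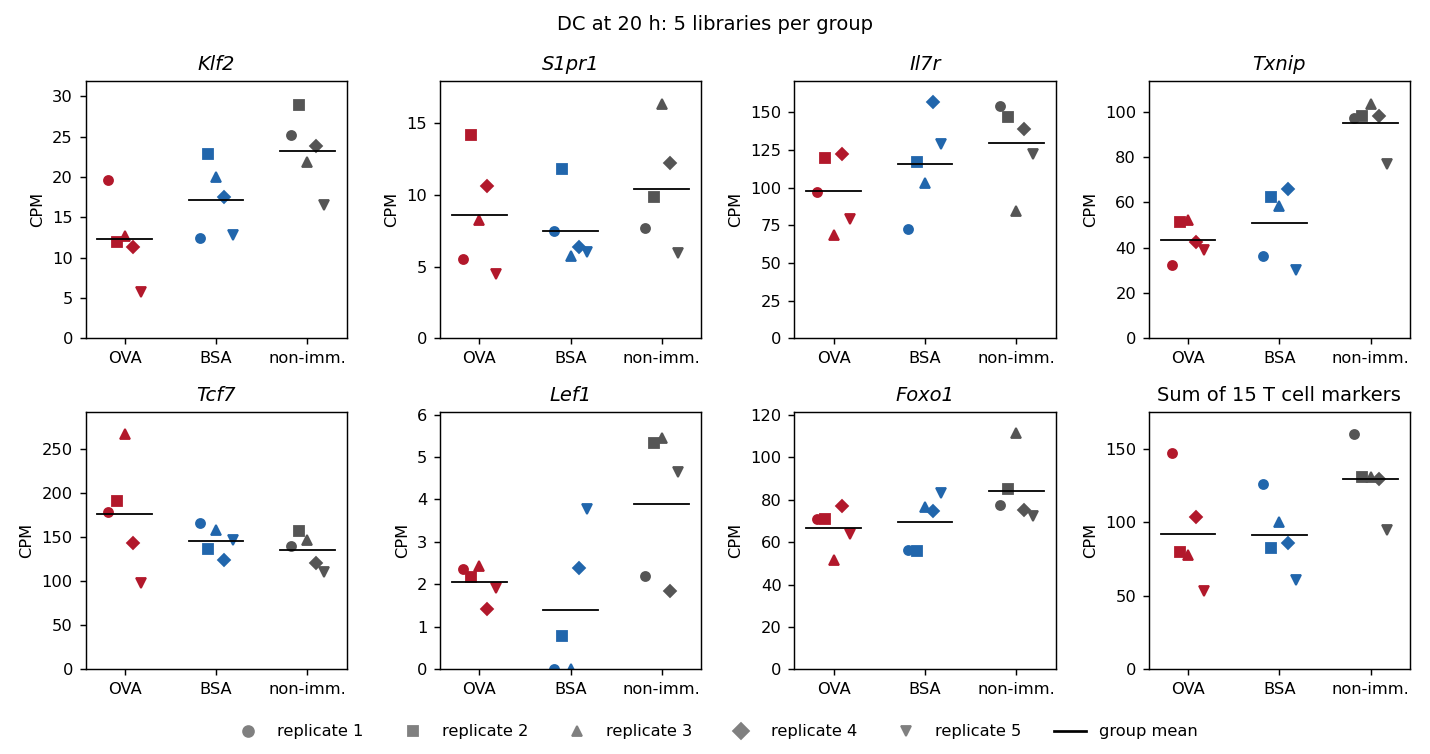
CPM (y axes, from 0) of the 7 genes and of the sum of 15 T cell markers in DC 20 h after OVA (red) or BSA (blue) particles and in non-immunized mice (grey), 5 libraries per group; shapes give replicate numbers and lines group means. Txnip is the gene whose immunized and non-immunized libraries do not overlap.

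The Txnip call with OVA held under all 21 settings. That with BSA was lost without non-immunized replicate 1 (-0.76, edgeR adjusted p = 0.0515), without BSA replicate 1 (-0.71, edgeR adjusted p = 0.0540), without BSA replicate 5 (-0.63, edgeR adjusted p = 0.0560) and with a term for Y-linked transcripts (-0.63, edgeR adjusted p = 0.125). Y-linked transcripts marked 3 of 5 non-immunized, 2 of 5 OVA and 0 of 5 BSA libraries. T cell markers summed to 53.0 to 147 CPM with OVA, 60.5 to 126 with BSA and 94.8 to 160 in non-immunized mice, and monocyte markers to 91.1 to 281, 135 to 304 and 569 to 1811 CPM; of the 8 monocyte markers 5 were tested and 4 were lower in each immunized group. Their part in the lower Txnip was not tested.

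Set against T cell markers, all of the 7 genes but Lef1 stood higher in the 20 h DC than in the sorted T cells, and Lef1 overlapped them. The marker sum that these ratios divide by was low in the 20 h DC, at 53.0 to 160 CPM. In percent of the T cell marker sum of the same library, Tcf7 was at 87.7% to 343% in the 20 h DC and at 7.97% to 12.1% in the sorted T cells. Il7r was at 57.2% to 214% in the 20 h DC and at 0.96% to 3.71% in the sorted T cells, and Foxo1 at 44.7% to 138% and at 3.64% to 7.65%. Klf2 was at 9.87% to 27.6% in the 20 h DC and at 1.39% to 4.05% in the sorted T cells. S1pr1 was at 3.74% to 17.8% and at 0.57% to 3.03%, and Txnip at 21.9% to 81.1% and at 1.71% to 7.17%. Lef1 was at 0% to 6.25% in the 20 h DC and at 1.39% to 3.22% in the sorted T cells. In the time course the ranges overlapped those of the sorted T cells for Tcf7 (9.70% to 19.6%), Lef1 (0.95% to 5.23%) and Foxo1 (5.04% to 8.11%). They lay wholly above for Il7r (13.8% to 26.2%), for Klf2 (5.75% to 10.5% in DC and 1.39% to 4.05% in T cells), for S1pr1 (3.63% to 6.45% and 0.57% to 3.03%) and for Txnip (8.84% to 15.5% and 1.71% to 7.17%). These are ratios within a library, and the tables were normalized separately.

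Over the 15 DC libraries at 20 h, the genes whose log2 CPM was most like that of Txnip were Havcr2, Cep135 and Rpl10 (Pearson r 0.94, 0.94 and 0.92), and those most like Klf2 were Gtf2i, Fam69a and Evi2a (r 0.96, 0.92 and 0.88). The nearest were Atp1b3, Trim12a and Dnajb11 for Tcf7 (r 0.87, 0.82 and 0.82) and Chm, Ubr1 and Adam10 for Il7r (r 0.92, 0.91 and 0.90). For Foxo1 they were 1700096K18Rik, Fam111a and Pak2 (r 0.89, 0.89 and 0.88), and for S1pr1 Fam136a, Tmem131 and Slx4ip (r 0.82, 0.82 and 0.79). The 15 libraries share the split into immunized and non-immunized mice, and these values are descriptions.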

How the data were processed

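RNA of 39 libraries was analysed: 6 of OT-II T cells and 33 of DC. Per the submitters' processing notes, bcl2fastq, HISAT 0.1.6, HOMER and the build mm9 were used. For DC the authors deposited counts per gene. For T cells the authors deposited normalized signal, counts divided by a size factor per library; every value was a whole number of reads within 0.01 (100% of values), so reads were recovered. The authors deposited log2 fold changes and adjusted p-values in the same tables, which are printed only where named. In all, 37 columns of per-sample values were not used, 4 of them from 2 libraries that match no labelled sample.

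For T cells, limma 3.58.1 (trend) was run on log2(normalized count + 1) over genes reaching 10 normalized counts in 3 or more libraries. DC counts were tested with edgeR 4.0.16 (quasi-likelihood, TMM, filterByExpr), each experiment in 1 fit. DESeq2 1.42.0 served as an alternative, also on the recovered reads. Benjamini-Hochberg adjustment ran over every gene tested, with a threshold of 0.05. Each test was checked on simulated data. Intervals are 95% intervals from the limma fit.

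The 7 genes, the 6 lists of 24 related genes and the marker lists were chosen with earlier results of these data known. Named are the 7 genes, linked genes of the same circuit (Foxo3 is not analysed here, and 1 other is not reported here), up to 4 called genes of smallest adjusted p per list and the most similar genes (5 in T cells, 3 per gene in DC). Replicate numbers were compared as correlations of deviations from group means. No experiment had every same-numbered pair above 0.1 (T cells -0.04, -0.12 and 0.05), so no pairing was used. Alternatives were other pseudocounts, filters, scalings and tools, a replicate block, and leaving out each library. Y-linked transcripts were a covariate for the DC at 20 h only. Promoter sequences were read from RefSeq; the annotation at hand is of a later build than mm9, so no gene coordinates from it are given. Tools were R 4.3.3 and Python 3.11.15.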

Additional observations from a re-analysis of the deposited data

Results flagged for a closer look

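Within the DC at 20 h, 21 groups of 5 libraries (7 genes in 3 groups) were searched for a library far from the others, with a Dixon critical ratio of 0.71, which chance exceeds in about 1 of 20 groups. S1pr1 in BSA replicate 2 stood at 11.8 CPM, from 15 counts, above the other 4 BSA libraries at 5.73 to 7.48 CPM. Txnip in non-immunized replicate 5 stood at 76.9 CPM, below the other 4 non-immunized libraries at 97.4 to 103 CPM, and still above all 10 immunized libraries.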

How the results depend on the processing

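None of the 7 changes in T cells and none of the changes called in DC turned its sign under any alternative run; the sign of uncalled changes in DC was not followed. In T cells the number called lower was 6 or 7 under the 7 alternatives that kept all libraries (6 with a replicate block) and ran from 1 to 7 as each library was left out, while the number of all genes called ran from 369 to 1467. In the DC time course the 19 calls became 25 with no filter, 16 with DESeq2, 20 with a replicate block and 13 to 23 as each library was left out. In the costimulation experiment the 0 calls became 2 with no filter, 1 with a replicate block (OVA with against without OT cells) and 1 with only the groups compared (Cd80/86 -/- against wild type), each time Tcf7, and ran from 0 to 1 as each library was left out. At 20 h the 3 calls ran from 1 to 3 as each library was left out (1 without non-immunized replicate 1), and were 3 with a replicate block. The causes were not tested. Leaving out a library of a group of 2 leaves 1, which is assumed to vary like the other groups. Counts were low for S1pr1 and Lef1 in DC outside the time course, and for Klf2 at 20 h.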
